A study of Mus musculus with 6 samples.

Results

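The platelet-derived growth factor (PDGF) and fibroblast growth factor (FGF) ligands and receptors were examined in RNA-seq of primary mouse aortic vascular smooth muscle cells (VSMCs). The members were the rows of the expression table whose symbol was Pdgfa, Pdgfb, Pdgfc, Pdgfd, Pdgfra, Pdgfrb, Fgf2, Fgf7, Fgfr1 or Fgfr2. All 10 were found among 18112 genes, and 9 of them entered the test with 12565 genes whose mean reached 0.5 FPKM (fragments scaled for transcript length and library size). Pdgfb was under that filter and is described by its values.

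The series compared VSMCs lacking the lysine methyltransferase SMYD2 with floxed control cells, in 3 libraries of each genotype on the C57BL/6 background. The knockout cells (Smyd2 SMC-/-) came from mice with LoxP sites around exon 2 of both Smyd2 alleles and a Tagln-Cre (SM22α-Cre) transgene, a driver that is also active outside smooth muscle. The controls (Smyd2 fl/fl) were littermates carrying the same floxed alleles without Cre. The mice were 8 to 10 weeks old. The labels put the cells at passage 6 in medium with 10% serum, whereas the methods give passage 4 and overnight starvation, so the serum state of the cells at harvest is uncertain. The methods speak in general of independent experiments, but no source used here ties these libraries to separate animals or cultures, so the p-values measure the spread between these libraries. Steps between the low FPKM values put the libraries at about 17000000 to 19550000 fragments each, at which 1 fragment on a transcript of 2000 bases is worth 0.0256 to 0.0294 FPKM.

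PDGF ligands are secreted as dimers and signal through a pair of receptor tyrosine kinases, PDGFRα and PDGFRβ, of which PDGFRβ is the one best known for driving VSMC proliferation and migration. FGF ligands bind receptor tyrosine kinases together with heparan sulfate, and FGF7 and FGF10 act mainly on the epithelial splice form of FGFR2 whereas FGF2 also binds FGFR1. Both families signal through RAS and ERK and are curbed by Sprouty, SPRED and DUSP proteins.

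Smyd2, the deleted gene, was at 7.87, 3.10 and 3.0 FPKM in control replicates 1, 2 and 3 and at 1.67, 0.40 and 0.80 FPKM in knockout replicates 1, 2 and 3. Every knockout library was below every control library. The log2 fold change of knockout against control on log2(FPKM + 1) was −1.48 (adjusted p = 0.105, and 0.0189 in a fit blocked by replicate number, with 0.00126 to 0.305 over all alternatives). The value covers the whole gene and not the deleted exon alone, and 814 of its 2717 annotated exonic bases overlap Gm37422 on the opposite strand. Because 1 is added before the logarithm, fold changes of genes at low FPKM come out too small.

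The smooth muscle label was met in part. Acta2, encoding smooth muscle α-actin, was at 761, 682 and 683 FPKM in the controls and at 201, 268 and 262 FPKM in the knockouts (log2 fold change −1.55, adjusted p = 0.00803). The adjusted p was 0.0541 without control 2, 0.0615 without control 3 and 0.0533 without knockout 3. Tagln, the gene whose promoter drives the Cre, was at 80.49, 79.14 and 70.26 FPKM in the controls and at 12.46, 87.30 and 57.12 FPKM in the knockouts (log2 fold change −0.92, adjusted p = 0.496). Of the list of 10 smooth muscle markers, Myh11, Des, Myocd and Itga8 were under 0.5 FPKM in every library. Among these, Myocd was at 0.48 FPKM in control 1 and at 0 to 0.02 FPKM in the other libraries. Of 9 endothelial markers in the table, Cdh5, Tek, Tie1, Vwf, Emcn and Erg were under 0.5 FPKM in every library, and the summed endothelial level was between 1.82 and 5.64 FPKM. Pecam1 was the most abundant endothelial marker in every control library and Kdr in every knockout library.

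In the control cells the order of the members by mean FPKM was Pdgfrb (148 ± 47.7, SD, n = 3), Fgfr1 (85.3 ± 10.1), Fgf7 (68.8 ± 17.2), Pdgfra (26.6 ± 7.42), Pdgfa (9.66 ± 0.601), Fgfr2 (9.09 ± 2.62), Pdgfd (3.94 ± 0.664), Pdgfc (3.44 ± 0.0569), Fgf2 (2.64 ± 0.567) and Pdgfb (0.193 ± 0.101). Neighbours in this order overlapped between libraries for Fgfr1 and Fgf7, for Pdgfa and Fgfr2, and for Pdgfd and Pdgfc. In the knockout cells the order was Pdgfrb (152.5 ± 94.8), Fgfr1 (80.25 ± 7.60), Pdgfa (20.8 ± 2.49), Fgfr2 (11.04 ± 4.25), Pdgfra (7.92 ± 3.56), Fgf7 (6.52 ± 1.88), Pdgfd (4.77 ± 0.834), Pdgfc (3.54 ± 1.44), Fgf2 (2.35 ± 0.886) and Pdgfb (0.467 ± 0.261). Here every neighbouring pair from Fgfr2 to Fgf2 overlapped between libraries. Pdgfrb and Fgfr1 led both orders, while Fgf7 ranked above Pdgfa in every control library and below it in every knockout library. The order of Fgf7 and Pdgfra in the knockouts rested on knockout 1, since Fgf7 was the higher in knockouts 2 and 3.

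**Figure D1:**
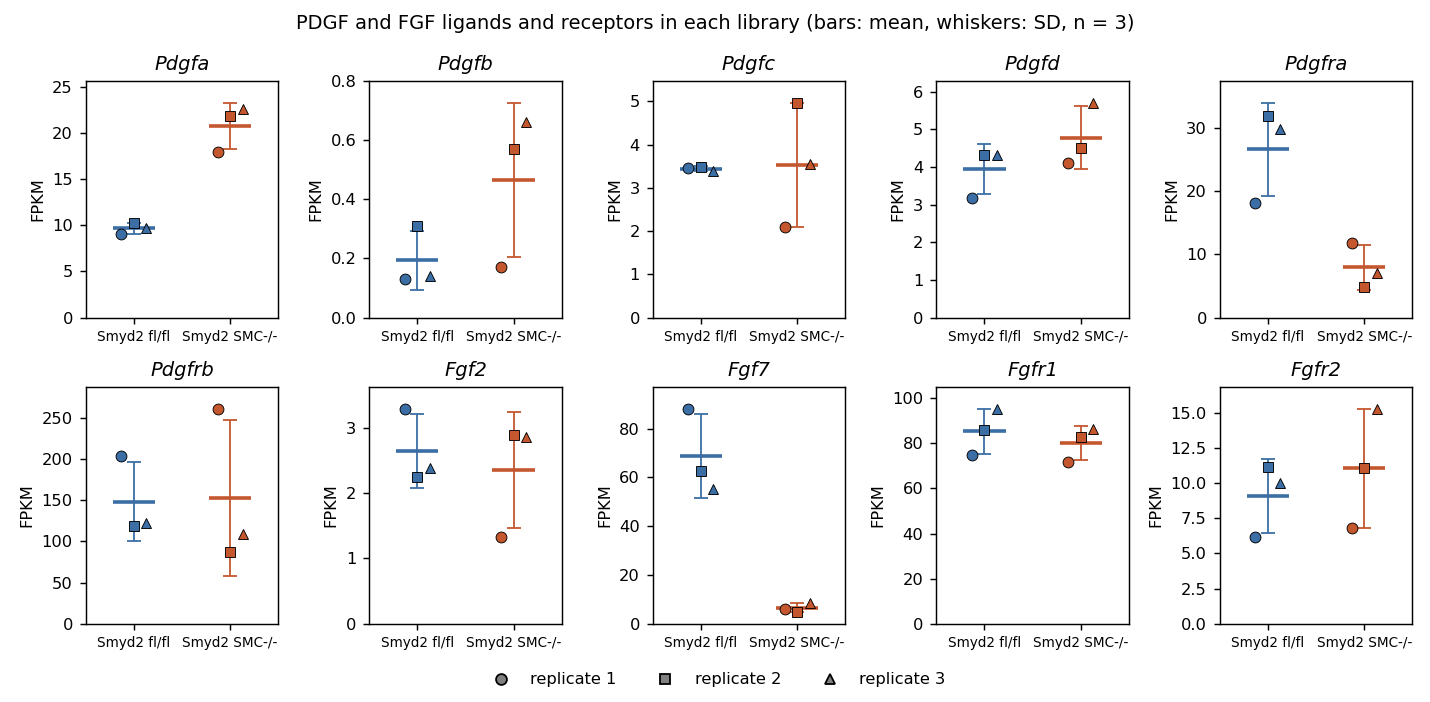
FPKM of each of the 10 members in the 6 libraries, on a linear axis of its own for each gene, with control cells on the left and knockout cells on the right of each panel; horizontal bars are group means, whiskers 1 SD (n = 3), and the marker shape gives the replicate number. The groups are apart for Pdgfa (9.04 to 10.24 against 17.95 to 22.59), Pdgfra (18.08 to 31.85 against 4.85 to 11.82) and Fgf7 (55.37 to 88.22 against 4.89 to 8.58), and overlap for the other 7 genes.

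Of the 9 members tested, 2 passed at an adjusted p under 0.05, against 2.44% of all genes tested (306 of 12565). Pdgfa was higher in the knockout cells, as were 1.23% of all genes, and Fgf7 was lower, as were 1.21% of all genes. The count over all genes was 34 without control 2, 36 without control 3, 686 without knockout 1, 55 without knockout 2 and 39 without knockout 3, and 1 member passed without control 2, control 3, knockout 2 or knockout 3. The groups did not overlap for 3 of the 9 (Pdgfa, Pdgfra and Fgf7), against 28.1% of all genes tested, a share close to that of the members (33.3%). In the fit blocked by replicate number 2 members passed, against 10.4% of all genes (1312), in the fit blocked for replicate 1 against the others 3 passed, against 20.3% (2550), and on replicates 2 and 3 alone 3 passed, against 29.0% (3650). The median log2 fold change was −0.08 over the 9 members and −0.02 over all genes tested. With 3 libraries against 3, an exact permutation test of a single gene cannot go below p = 0.1, the two-sided value reached by Pdgfa, Pdgfra and Fgf7.

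Among the PDGF ligands, Pdgfa encodes the A chain, whose homodimer binds PDGFRα. It was at 9.04, 10.24 and 9.69 FPKM in the controls and at 17.95, 21.84 and 22.59 FPKM in the knockouts. Each knockout library was above each control library. Pdgfa thus rose 2.15-fold by group means (log2 fold change 1.03, SE 0.139, 95% interval 0.69 to 1.36, adjusted p = 0.0216). Its same-numbered pairs differed by 0.92, 1.02 and 1.14 on the log2 scale. The adjusted p was 0.0999 without control 2, 0.124 without control 3, 0.114 without knockout 2 and 0.129 without knockout 3, and over all alternatives it ran from 0.000362 to 0.129. The log2 fold change lay between 0.97 and 1.125 with any 1 library left out. In the annotation 813 of the 3119 exonic bases of Pdgfa overlap 6330403L08Rik on the opposite strand, and as counting by strand is not stated, reads of the pair cannot be told apart.

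Pdgfb encodes the B chain, the classical smooth muscle mitogen made by endothelium and platelets. It was at 0.13, 0.31 and 0.14 FPKM in the controls and at 0.17, 0.57 and 0.66 FPKM in the knockouts. The groups overlapped, and at this depth these levels stand on few fragments. Without a filter on low FPKM its log2 fold change was 0.28 (95% interval −0.08 to 0.65, adjusted p = 0.409).

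Pdgfc and Pdgfd encode ligands that are secreted inactive and activated by proteolysis. Pdgfc was between 3.38 and 3.49 FPKM in the controls and at 2.10, 4.97 and 3.55 FPKM in the knockouts, which lay on both sides of the controls (log2 fold change −0.02, 95% interval −0.63 to 0.59, adjusted p = 0.976, with the sign turned under TPM rescaling and median scaling). Pdgfd was at 3.17 to 4.33 FPKM in the controls and 4.11 to 5.71 FPKM in the knockouts (log2 fold change 0.23, 95% interval −0.22 to 0.67, adjusted p = 0.563). Neither gene passed the test. Pdgfa made up 57.2%, 55.7% and 55.3% of the summed FPKM of the 4 PDGF ligands in the controls and 73.8%, 68.5% and 69.5% in the knockouts, and the sum went from 15.8, 18.4 and 17.5 to 24.3, 31.9 and 32.5 FPKM. Both quantities were higher in every knockout library than in every control library.

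Pdgfra encodes PDGFRα, the receptor for the A and C chains, which marks many fibroblasts and mesenchymal progenitors. It was at 18.08, 31.85 and 29.77 FPKM in the controls and at 11.82, 4.85 and 7.10 FPKM in the knockouts. The groups did not overlap, with replicate 1 of each genotype closest to the other group. The log2 fold change was −1.66 (SE 0.338, 95% interval −2.47 to −0.85), but the adjusted p of 0.0601 missed the threshold. It was 0.0283 in the fit blocked for replicate 1 against the others, 0.0265 without knockout 1, and between 0.0265 and 0.232 over the 6 fits that left out 1 library. The same-numbered pairs differed by −0.57, −2.49 and −1.93 on the log2 scale, and replicates 2 and 3 alone gave −2.21 (adjusted p = 0.00012, the lowest of all alternatives, which reached 0.232). In bulk RNA, fewer cells carrying a transcript and less of it per cell cannot be told apart. Of the 10024 exonic bases of Pdgfra, 456 overlap Gm42802 on the opposite strand.

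Upstream windows were taken for Pdgfra, Fgf7 and Fgf10, lower in every knockout library than in every control library, and for Pdgfa, which was higher. Only windows that overlap no annotated exon are printed, which left out those of Pdgfa. The Pdgfra window is the 250 bases upstream of its start in RefSeq (GRCm38.p6, chr5:75152001-75152250, plus strand). It overlaps no annotated exon, and the gene itself spans chr5:75152292-75198215 in GENCODE M21. None of the 3 motifs searched on both strands was found in it: the GC box GGGCGG, the TATA box TATAAA and the CArG box, the binding motif of serum response factor.
Pdgfra: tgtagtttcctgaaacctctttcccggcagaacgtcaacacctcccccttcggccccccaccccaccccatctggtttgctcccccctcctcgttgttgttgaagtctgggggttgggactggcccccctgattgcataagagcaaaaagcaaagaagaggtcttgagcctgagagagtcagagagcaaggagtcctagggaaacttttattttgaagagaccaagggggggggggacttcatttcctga
Among 32851 RefSeq promoter windows of this length, 32.7% held a GC box, 12.4% a TATA box and 1.47% a CArG box. Of the 10 members, 7 had an entry in that table, and Pdgfb, Pdgfrb and Fgfr1 had none. Of these 7, Fgf2 and Pdgfa held a GC box, Pdgfd a TATA box and Pdgfc a CArG box.

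Pdgfrb encodes PDGFRβ, the receptor for the B and D chains, and was the most abundant member in every library. It was at 203, 118 and 123 FPKM in the controls and at 261, 86.8 and 109.5 FPKM in the knockouts. Replicate 1 was the highest in both genotypes, and the groups overlapped. The log2 fold change was −0.08 (95% interval −1.12 to 0.96, adjusted p = 0.945, positive under TPM rescaling and quantile normalization), and the pairs differed by 0.36, −0.44 and −0.16. Blocked by replicate number, which takes up the high replicate 1 of both genotypes, the interval was −0.53 to 0.365 (adjusted p = 0.780).

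The ratio of Pdgfrb to Pdgfra FPKM was 11.2, 3.72 and 4.13 in the controls and 22.1, 17.9 and 15.4 in the knockouts. The lowest knockout ratio was above the highest control ratio. The largest control ratio was that of replicate 1, and the knockout of the same number was also the largest of its group.

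**Figure D2:**
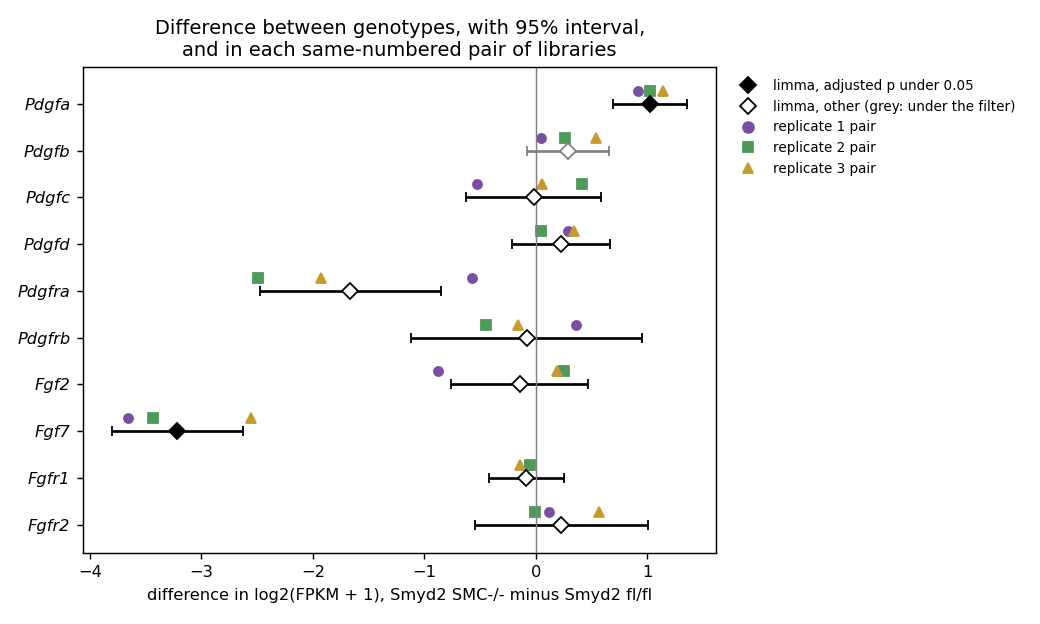
Difference in log2(FPKM + 1) between knockout and control for each member: diamonds are the limma estimate with its 95% interval (filled where the adjusted p was under 0.05, grey for Pdgfb, which was under the filter), and the small markers above are the 3 same-numbered pairs. For Pdgfra the replicate 1 pair (−0.57) lies apart from the others (−2.49 and −1.93), whereas the 3 pairs of Fgf7 lie between −3.65 and −2.56.

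The FGF ligands on the list were Fgf2 and Fgf7. Fgf7, also called keratinocyte growth factor, is made by mesenchymal cells and acts on epithelium through the epithelial form of FGFR2. It was at 88.22, 62.72 and 55.37 FPKM in the controls and at 6.09, 4.89 and 8.58 FPKM in the knockouts. Even the lowest control library was far above the highest knockout library. Fgf7 fell by group means from 68.8 ± 17.2 to 6.52 ± 1.88 FPKM (SD, n = 3), a 10.55-fold difference. The log2 fold change was −3.22 (SE 0.245, 95% interval −3.80 to −2.63, adjusted p = 0.00328), and it passed in all 6 fits that left out 1 library, with adjusted p between 0.0079 and 0.0305. The same-numbered pairs of Fgf7 differed by −3.65, −3.435 and −2.56 on the log2 scale.

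The upstream window of Fgf7 (RefSeq, GRCm38.p6, chr2:126034408-126034657, plus strand) ends at the annotated start of the gene, chr2:126034658-126091185, overlaps no annotated exon and held none of the 3 motifs. Fgf10, a ligand of the same subfamily and receptor, is shown beside it; its window (chr13:118714449-118714698, plus strand) lies inside the annotated gene, chr13:118669791-118792115, but in none of its exons, and held 1 GC box, on the minus strand and in capitals.
Fgf7: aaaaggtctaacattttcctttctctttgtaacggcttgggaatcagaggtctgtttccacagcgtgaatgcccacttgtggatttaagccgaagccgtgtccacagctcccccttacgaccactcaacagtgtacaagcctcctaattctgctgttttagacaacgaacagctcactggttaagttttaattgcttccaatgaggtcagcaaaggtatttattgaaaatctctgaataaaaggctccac
Fgf10: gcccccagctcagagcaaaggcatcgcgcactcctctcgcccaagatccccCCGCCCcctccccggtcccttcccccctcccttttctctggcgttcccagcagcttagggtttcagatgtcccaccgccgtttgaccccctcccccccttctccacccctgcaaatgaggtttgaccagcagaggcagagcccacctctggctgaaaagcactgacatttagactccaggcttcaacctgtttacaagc
A match or its absence describes only the letters of these windows.

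Fgf10 was at 29.65, 22.17 and 19.60 FPKM in the controls and at 6.79, 0.53 and 1.43 FPKM in the knockouts. The groups did not overlap, and knockout 1 was the highest of its group. The log2 fold change was −2.99 (95% interval −4.37 to −1.62, adjusted p = 0.0547, and 0.0231 in the blocked fit). Without knockout 1 the adjusted p was 0.00466, and over all alternatives it ran from 9.45e-05 to 0.214. Fgf7 and Fgf10 together made up 93.4%, 84.2% and 81.7% of the summed FPKM of 13 secreted FGF ligands in the controls and 63.9%, 26.9% and 45.2% in the knockouts. The sum itself was 126.1, 100.8 and 91.8 FPKM in the controls and 20.2, 20.1 and 22.1 FPKM in the knockouts. Fgf7 was the most abundant FGF ligand in every control library, and in the knockouts it was passed by Fgf10 in replicate 1 and by Fgf18 (9.38 FPKM) in replicate 2.

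Fgf2, basic FGF, is a mitogen for VSMCs that leaves the cell without a signal peptide. It was at 3.29, 2.25 and 2.38 FPKM in the controls and at 1.33, 2.88 and 2.85 FPKM in the knockouts. The pairs differed by −0.88, 0.26 and 0.19 on the log2 scale, and the groups overlapped (log2 fold change −0.15, 95% interval −0.76 to 0.47, adjusted p = 0.809). Without knockout 1 the log2 fold change was 0.10. Fgf2 shares 640 of its 6782 exonic bases with Nudt6 on the opposite strand, which was at 4.04 to 7.23 FPKM.

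**Figure D3:**
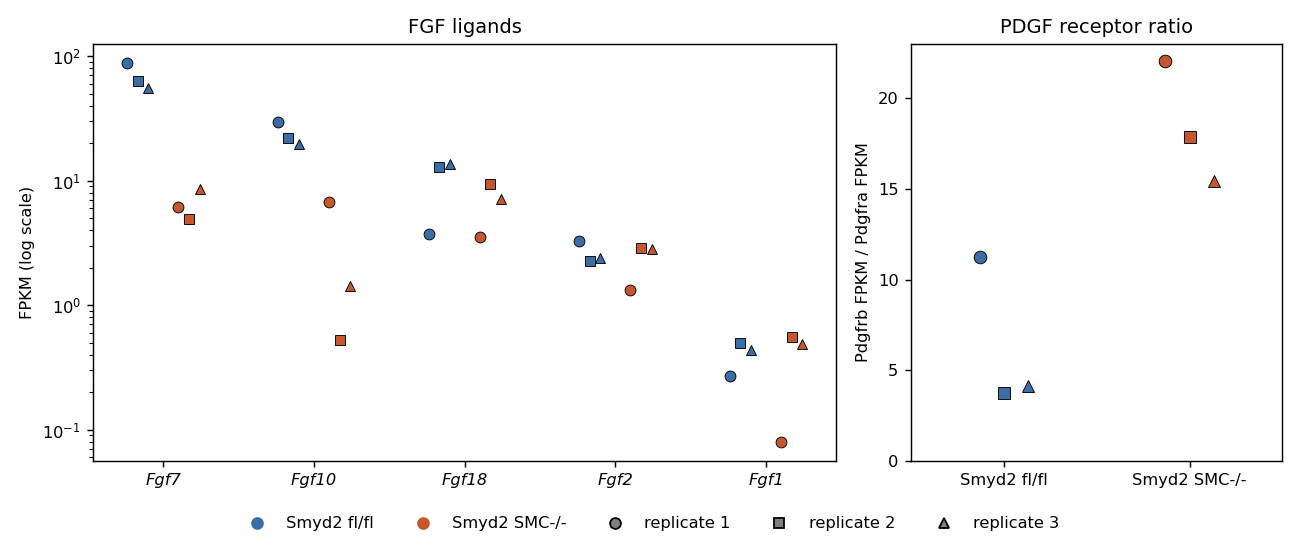
Left, FPKM on a log axis of 5 FGF ligands in each library, coloured by genotype with the marker shape giving the replicate. Right, the ratio of Pdgfrb to Pdgfra FPKM on a linear axis from 0. Fgf7 and Fgf10 lie lower in all knockout libraries than in all controls, while Fgf18, Fgf2 and Fgf1 overlap, and the receptor ratio is 3.72 to 11.2 in the controls and 15.4 to 22.1 in the knockouts.

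Fgfr1 encodes the main FGF receptor of mesenchymal cells. It was at 74.94, 85.72 and 95.12 FPKM in the controls and at 71.69, 82.85 and 86.21 FPKM in the knockouts. The groups overlapped, and the 95% interval of the log2 fold change was the narrowest of the tested members after Pdgfa, −0.42 to 0.26 (estimate −0.08, adjusted p = 0.800, with an estimate of 0.039 under TPM rescaling). Fgfr2 encodes the receptor whose epithelial form binds FGF7 and FGF10, and the table does not separate its splice forms. It was at 6.15, 11.16 and 9.97 FPKM in the controls and at 6.77, 11.09 and 15.26 FPKM in the knockouts (log2 fold change 0.23, 95% interval −0.55 to 1.00, adjusted p = 0.760). The groups overlapped here too, and 314 of its 10328 exonic bases are shared with Ctbp2. Fgfr1 was 7.68 to 12.2 times Fgfr2 in the controls and 5.65 to 10.6 times in the knockouts.

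The genes whose pattern over the 6 libraries was most like a member's were sought among 2336 genes (mean 5 FPKM or more, log2 range 1 or more), as a description of libraries that share genotype and depth. For Fgf7 they were Snai1 (Pearson r = 0.993), a repressor of epithelial genes, Gm46353 (0.990) and Klhl22 (0.990). For Pdgfra they were Cyp2d22 (0.992), B4galnt1 (0.990) and St6gal1 (0.989). For Pdgfrb they were Grik5 (0.998), Birc2 (0.997) and Brd1 (0.996), which like Pdgfrb were highest in replicate 1 of both genotypes. For Fgfr1 they were Bicc1 (0.970), Ifi207 (0.967) and Gpr137b (0.963). Fgfr1 itself ran only from 71.69 to 95.12 FPKM, less than the log2 range required of the genes searched. Genes as flat as Fgfr1 were therefore left out, and Ifi207 ran from 0.51 to 22.41 FPKM.

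Of 28 other FGF and PDGF family genes listed, 21 were in the table, 8 were tested and 1 passed, and 5 passed in the blocked fit (4 higher, Fgf11 and Fgf23 among them, and 1 lower), against 10.4% of all genes. Fgfbp3, which encodes a secreted FGF-binding protein, was at 0.79, 1.00 and 1.23 FPKM in the controls and at 7.79, 5.93 and 7.88 FPKM in the knockouts. It rose in every knockout library (log2 fold change 2.03, adjusted p = 0.00646), with an adjusted p of 0.0541 without control 2 and 0.0526 without knockout 3. The groups did not overlap for 5 of the 8, against 28.1% of all genes tested. Of these, Fgf11 (0.15 to 0.54 against 1.03 to 1.93 FPKM) and Fgf23 (0.03 to 0.14 against 0.93 to 1.88 FPKM), named after their values were seen, reached the filter only through the knockouts, so their being higher is partly set by it.

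Over the 7 pathway lists together, 101 of 128 genes were tested, 1 passed higher and 1 lower (1.98%, against 2.44% of all genes), and the median log2 fold change was −0.03, near that of all genes (−0.02). In the blocked fit 11 passed higher and 3 lower (13.9%, against 10.4% of all genes), and the 11 include Fgf11 and Fgf23, which entered the test only by their knockout values. The count of 2 became 4 without control 1, 0 without control 2, 1 without control 3, 5 without knockout 1, 1 without knockout 2 and 0 without knockout 3. Map2k2, the ERK kinase MEK2, fell in the list of 13 genes from RAS to ERK. It was at 70.31, 74.74 and 70.11 FPKM in the controls and at 44.19, 44.94 and 46.00 FPKM in the knockouts (log2 fold change −0.66, adjusted p = 0.0347). The adjusted p was 0.170 without control 2, 0.168 without control 3, 0.156 without knockout 2 and 0.169 without knockout 3, with 0.0544 after TPM rescaling and 0.0525 after median scaling. Map2k1, which encodes the related kinase MEK1 and was named after its values were seen, was at 24.30, 35.91 and 32.13 FPKM in the controls and at 35.27, 50.25 and 42.37 FPKM in the knockouts (log2 fold change 0.46, adjusted p = 0.258, and 0.0438 in the blocked fit). None of the 5 tested PDGF activating proteases, 21 heparan sulfate coreceptors and enzymes, 22 receptor adaptors and signal transducers, 19 feedback inhibitors and 13 ERK-responsive transcription factors passed in limma, while 1, 5, 4, 4 and 5 of them had an unadjusted p under 0.05, as did 20.3% of all genes tested (2556).

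Among the genes of these lists that did not pass, Sulf2, a heparan sulfate endosulfatase, was at 45.76, 80.10 and 88.24 FPKM in the controls and at 143, 148 and 147 FPKM in the knockouts (adjusted p = 0.0781, 0.0398 in the blocked fit, and 0.0404 without control 1). Egr1, an immediate early gene of ERK signalling, was at 20.02, 37.06 and 36.29 FPKM in the controls and at 47.92, 69.50 and 70.63 FPKM in the knockouts (adjusted p = 0.116, and 0.0168 in the blocked fit). Elk3, an ETS factor that can repress such genes, was at 64.78, 40.30 and 40.18 FPKM in the controls and at 27.23, 21.91 and 19.45 FPKM in the knockouts (adjusted p = 0.0726, and 0.0172 in the blocked fit). Fosl1, an AP-1 subunit, was at 54.89 FPKM in control 1 and 6.18 and 6.67 FPKM in the other controls, against 3.08 to 5.48 FPKM in the knockouts (adjusted p = 0.344), so control 1 set the control mean. These 4 genes were picked among those without overlap between the groups, which made up 23.8% of the tested heparan sulfate genes, 61.5% of the ERK-responsive factors and 37.6% of the 7 lists together, against 28.1% of all genes. The share of the ERK-responsive factors counts Egr2 (control mean 0.727, knockout mean 0.427 FPKM). Egr2 reached the filter only through the controls, so its being lower is partly set by it. The median log2 fold change was 0.67 for the other FGF and PDGF family genes. That median counts Fgf11 (0.844) and Fgf23 (1.052), which reached the filter only through the knockouts, so it is partly set by the filter. The median was 0.13 for the proteases, 0.10 for the heparan sulfate genes, −0.04 for the adaptors and −0.01 from RAS to ERK. It was −0.16 for the feedback inhibitors and −0.31 for the ERK-responsive factors, and each list held genes of both signs.

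**Figure D4:**
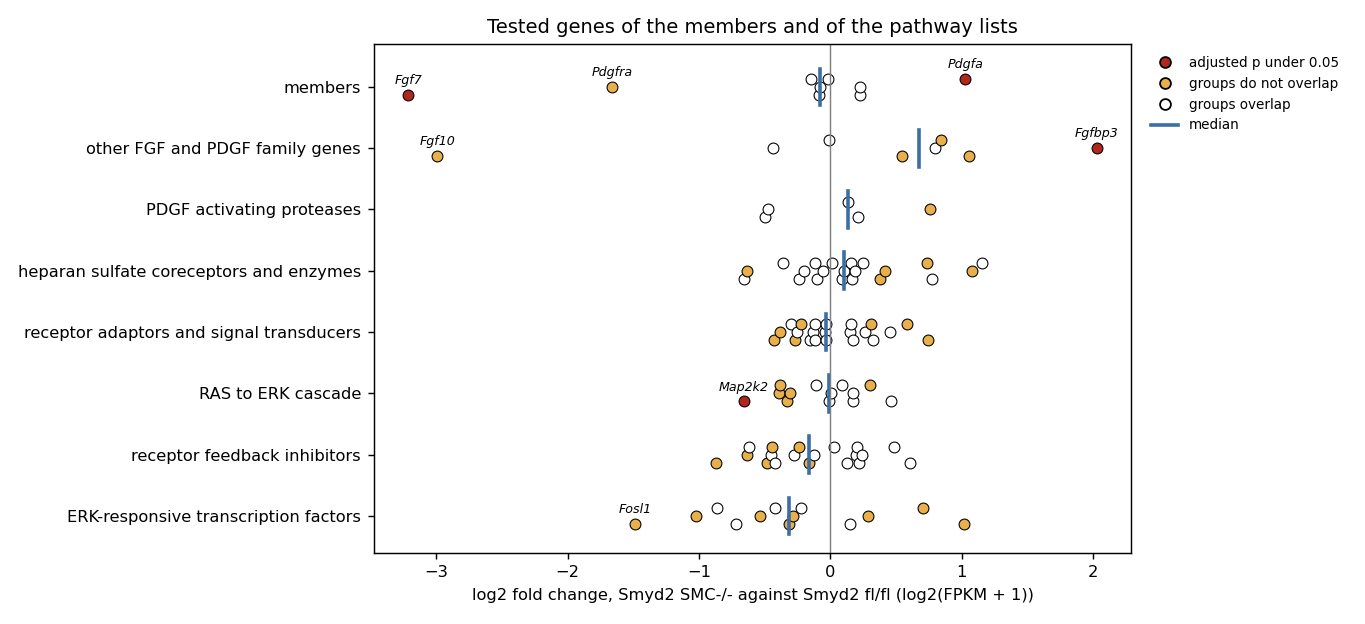
Log2 fold change of knockout against control for each tested gene of the members and of the 7 pathway lists. Red points passed at an adjusted p under 0.05, orange points did not pass but had groups that did not overlap, white points overlapped, and the vertical bars are list medians. Besides Fgf7 and Pdgfa, Fgfbp3 and Map2k2 are the only points in red.

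Like Fgf7 and Pdgfra, some adventitial fibroblast markers were lower in every knockout library than in every control library, while others were higher. Of 10 adventitial fibroblast markers, all were tested and 2 fell (Dpt and Serpinf1), against 1.21% of all genes. In the blocked fit 5 were called lower, against 5.72% of all genes (719), and the groups did not overlap for 4 lower and 2 higher genes, against 28.1% of all genes in either direction. Dpt was at 143.88, 90.32 and 65.50 FPKM in the controls and at 3.31, 1.15 and 0.63 FPKM in the knockouts (log2 fold change −5.28, adjusted p = 0.00417), and Serpinf1 was lower in every knockout library (−3.005 on the log2 scale, adjusted p = 0.00246). Cd34 was at 71.09, 98.24 and 95.02 FPKM in the controls and at 3.39, 23.57 and 15.86 FPKM in the knockouts (adjusted p = 0.0669, 0.0269 in the blocked fit, and 0.0121 without knockout 1). Col1a1 and Col1a2, the collagen I genes, were higher in every knockout library than in every control library (log2 fold changes 0.96 and 0.96, adjusted p = 0.186 for both). Dcn and Lum overlapped (0.53 and 1.82, adjusted p = 0.890 and 0.342), with replicate 1 the lowest of each genotype. Dcn was at 13.88, 311 and 257 FPKM in the controls and at 25.59, 383 and 350 FPKM in the knockouts. Lum was at 0, 1.31 and 1.17 FPKM and at 0.26, 14.51 and 10.39 FPKM. Blocked for replicate 1 against the others, their adjusted p was 0.0418 and 0.0467, and by replicate number 0.0702 and 0.0826. Replicates 2 and 3 alone gave 0.373 (adjusted p = 0.0791) and 2.57 (adjusted p = 7.4e-05). With 1 library left out, Dcn ran from −0.889 to 1.791 and Lum from 1.146 to 2.957. Gsn was lower without overlap (−0.601, adjusted p = 0.188, and 0.0406 in the blocked fit). Ly6a (−1.086, adjusted p = 0.552, and 0.0404 in the blocked fit) and Pi16 (−1.323, adjusted p = 0.304) were lower with overlap. The median of the list was −0.844 on the log2 scale. The summed level of the list was 1282, 2135 and 2020 FPKM in the controls and 2617, 2276 and 1675 FPKM in the knockouts, with Col1a1 the most abundant gene, and the sums of the groups overlapped. No listed marker of this cell type was at 0 in all libraries. The smooth muscle list summed to 923, 825 and 818 FPKM in the controls and 265, 436 and 386 FPKM in the knockouts, most of it Acta2. Of the 6 smooth muscle markers tested 1 had groups that did not overlap (16.7%, against 28.1% of all genes), and the list median was −0.48 on the log2 scale. Besides Acta2, the log2 fold changes were −0.92 for Tagln, −0.91 for Cnn1, −0.05 for Smtn, 0.24 for Lmod1 and 0.805 for Mylk, with adjusted p between 0.399 and 0.900. Cnn1 was at 21.03, 4.86 and 5.11 FPKM in the controls and at 2.70, 5.07 and 4.32 FPKM in the knockouts. Its log2 fold change ran from −1.236 to −0.281 with 1 library left out, and that of Tagln from −1.47 to −0.113. The methods describe removal of the adventitia during isolation and a smooth muscle actin stain of each batch as a check of purity. The part of these markers' cell types in the Fgf7, Fgf10 and Pdgfra values was not tested.

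Of the other lists, macrophage markers summed to 4.98 to 9.04 FPKM, led by Cd68, with Ptprc, Adgre1, Itgam, C1qa, Fcgr1 and Mrc1 under 0.5 FPKM in every library. Pericyte markers summed to 5.02 to 12.5 FPKM, with Abcc9 and Higd1b under 0.5 FPKM. Rgs5 led in every control library and in knockout 2, at 3.28, 8.05 and 7.27 FPKM in the controls and 0.71, 5.85 and 0.85 FPKM in the knockouts (log2 fold change −1.30, adjusted p = 0.281), and Notch3 led in knockouts 1 and 3. Notch3 rose from 0.65, 1.34 and 1.27 to 3.25, 3.17 and 3.35 FPKM (adjusted p = 0.0489), a call lost without any 1 of the 6 libraries (adjusted p between 0.0527 and 0.211). Endothelial Kdr was at 0.47 to 0.84 FPKM in the controls and 0.96, 5.15 and 2.96 FPKM in the knockouts (adjusted p = 0.186, and 0.0277 without knockout 1), whereas Pecam1 was at 0.56, 0.88 and 0.92 FPKM in the controls and 0.12, 0.18 and 0 FPKM in the knockouts, under the filter. Adipocyte markers Adipoq, Plin1 and Cidec were under 0.5 FPKM throughout, while Fabp4 was at 118.57 FPKM in knockout 1 and at 3.12 to 6.19 FPKM in the other libraries. Knockout 1 was also the highest of the 6 libraries for Pdgfrb and the lowest for Fgf2.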

How the data were processed

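RNA of 3 Smyd2 fl/fl and 3 Smyd2 SMC-/- libraries was sequenced, and the authors deposited FPKM for 18112 genes. Per the methods and labels they used SOAPnuke, HISAT, Bowtie2 and RSEM; versions and genome build are not given in the sources used here. All per-sample columns were matched to samples by their labels. On log2(FPKM + 1), the 12565 genes averaging 0.5 FPKM or more were fitted by genotype with limma 3.58.1 in R 4.3.3 (trend, robust eBayes), tested on simulated data, and p-values were Benjamini-Hochberg adjusted over all genes tested. Genes passed at an adjusted p under 0.05. The study names no pairing, so the main fit had no block. Deviations from group means correlated at 0.615, 0.460 and 0.528 between same-numbered libraries. Control 2 with knockout 3 (0.461) and control 3 with knockout 2 (0.439) were as close, and replicate 1 stood apart. The values thus do not pair replicates 2 and 3 by number. Same-numbered pairs are a description, and a fit blocked by replicate number is given as an alternative, mainly where it changes a call. Transcript starts and exons came from RefSeq (GRCm38.p6) and GENCODE M21 (GRCm38). Depth was approximated from FPKM steps of 4343 genes with 1 listed transcript; 68.8% to 70.6% of the low values were within 0.15 of a whole fragment. Python 3.11.15 with pandas 2.3.3 and scipy 1.17.1 was used.

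Named were all members and Smyd2; of other lists, called genes and, up to 3 per direction, genes whose groups did not overlap with an absolute log2 fold change of at least 1 and a mean of at least 1 FPKM; the most similar genes; and defining markers. Other names (Fgf18, Fgf1, Fgf11, Fgf23, Map2k1, Egr2, Fabp4, the overlapping genes) were chosen after their values were seen. Members and lists were chosen with earlier results of these data known. The alternatives were other pseudocounts, filters, blocks and scalings, and each library left out.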

Additional observations from a re-analysis of the deposited data

How the results depend on the processing

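Under the replicate block, the block for replicate 1 and replicates 2 and 3 alone, 1312, 2550 and 3650 of all genes passed, against 306. The pathway lists had 14, 28 and 35, against 2, and 4 under TPM rescaling. Leaving out 1 library gave 34 to 686 for all genes, 1 to 3 for the members and 0 to 5 for the pathway lists. TPM rescaling shifted the median gene by 0.11 on the log2 scale and the calls from 154 higher and 152 lower to 247 higher and 99 lower. Fgf7 and Pdgfa kept direction and side of the threshold under every pseudocount, filter, block and scaling, whereas Pdgfa lost its call without 4 of the 6 libraries; an adjusted p under 0.1, added after seeing the data, passed 3 members. Signs turned for members whose intervals included 0, and the cause was not tested: Pdgfc with replicates 2 and 3 alone (0.23), TPM (0.078), median scaling (0.009) and 1 library left out (−0.24 to 0.23); Pdgfrb with TPM (0.041), quantile normalization (0.004) and 1 library left out (−0.55 to 0.24); Fgf2 with replicates 2 and 3 alone (0.22) and 1 library left out (−0.27 to 0.10); Fgfr1 with TPM (0.039); and Fgfr2 with 1 library left out (−0.022 to 0.51). The replicate block changed no member's call, whereas the block for replicate 1 added Pdgfra (adjusted p = 0.0283). The TPM values of Pdgfc, Pdgfrb and Fgfr1 are smaller than the shift of the median gene. FPKM without counts gives no counting interval, and Pdgfb is limited by depth.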
